A study of Mus musculus with 13 samples.

Results

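A set of 9 genes of disulfide formation and collagen modification were described across arrays of CD31-sorted cells from ovarian tumors grown in mice. They are the endoplasmic reticulum oxidase Ero1a, the prolyl 4-hydroxylase genes P4hb, P4ha1 and P4ha2, the lysyl hydroxylases Plod1, Plod2 and Plod3, and the lysyl oxidases Lox and Loxl2. Of the 9, 8 are among the 18193 mouse genes with a probe set of their own on the array. The 9 members were listed by function, but the set was selected on measured values: Ero1a and P4ha1 had been seen to be higher on resistant than on sensitive arrays. Resistant against sensitive is therefore a description here for every member, with no test, and Ero1a and P4ha1 are described without a test in every comparison.

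The resistant group (n = 4) and the sensitive group (n = 4) came from tumors of mice given B20, an antibody that blocks VEGF-A, a growth factor that drives the sprouting of blood vessels. The control group (n = 5) carried the same tumors, and control IgG is the comparator that the study's methods name. The study's introduction also names cells collected before treatment. The sample titles say only control, so which of these the control arrays are is not settled. All groups shared the human ovarian cancer line SKOV3ip1, grown in the peritoneal cavity of female athymic nude mice, which lack T cells, and B20-sensitive and resistant states were told apart by tumor bioluminescence. The study describes tumors taken at various times, and names maximal response and progression. Time on treatment may therefore differ between sensitive and resistant arrays, and it cannot be told apart from resistance here. The ages of the mice and the animal behind each array are not given in the labels, and every p-value therefore reflects only how far these arrays spread.

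Collagen chains are modified in the endoplasmic reticulum before they leave the cell. Prolyl 4-hydroxylase, made of an alpha subunit (P4ha1 or P4ha2) and the beta subunit P4hb, hydroxylates proline and so stabilizes the triple helix, while the PLOD enzymes hydroxylate lysine. P4hb is also protein disulfide isomerase, which Ero1a reoxidizes after it has passed disulfide bonds to client proteins. Outside the cell, Lox and Loxl2 oxidize lysine residues, the first step of collagen and elastin cross-linking. The hydroxylases need oxygen, iron and ascorbate, and several of these genes are known targets of hypoxia-inducible factor (HIF).

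The sorted cells were not uniform across arrays, in ways that bear on each result below. Medians of 12 endothelial marker genes were 3.19 to 4.14 on resistant arrays, 2.54 to 3.49 on sensitive arrays and 3.06 to 7.36 on control arrays, on a log2 scale whose lower bound (the floor) was 2.01, and only control arrays 4 and 5 exceeded 4.14. Cdh5, the junction cadherin that defines endothelium, was 2.87 to 4.28 on resistant arrays, 2.11 to 3.27 on sensitive arrays and 2.61 to 8.06 on control arrays, so this defining marker lay near the floor on most arrays of cells labelled endothelial. Medians of 11 macrophage markers were 9.20 to 9.95 on resistant arrays, 3.63 to 4.60 on sensitive arrays 1, 2 and 3, 9.84 on sensitive array 4, and 7.99 to 9.59 on control arrays. Summed macrophage marker intensities ran from 10558 to 19471 on resistant, 1556 to 20234 on sensitive and 10958 to 18280 on control arrays, and 0 of the 11 genes lay at the floor on every array of a group. Mesothelial marker medians were 6.55 and 5.47 on resistant arrays 2 and 3, 7.01 and 7.26 on sensitive arrays 1 and 2, and at most 4.96 elsewhere. The B cell marker median was highest on sensitive array 3, at 6.74, against 3.52 to 5.48 on resistant and 3.03 to 4.90 on control arrays. Its summed B cell marker intensity, 3967, lay within the control range of 81 to 5547. T and NK cell marker medians were 4.43 on that array, 4.41 on control array 1 and at most 3.84 elsewhere. Replicate arrays correlated at 0.896 to 0.955 in the resistant, 0.664 to 0.919 in the sensitive and 0.906 to 0.985 in the control group. The gap between 3′ and 5′ probe sets of Actb and Gapdh, a measure of RNA degradation, was 2.56 to 3.82 on resistant, 2.23 to 5.95 on sensitive (5.95 on array 4) and 2.38 to 3.02 on control arrays.

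Of the 9 members, 8 could be measured. Loxl2 had 2 probe sets, both of which also match Gm21451, so it has no value of its own. All 8 measured members passed the filter on dim genes, among 15384 genes that did, and they had 15 probe sets in all. Each gene is given by the probe set that was brightest on average across the 13 arrays, and values are log2 intensities, not comparable between genes. In bulk samples such as these, fewer cells of a type and less RNA per cell cannot be told apart.

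Ero1a (probe set 1419029_at), which passes electrons from protein disulfide isomerase to oxygen, had the widest separation between resistant and sensitive arrays among the members. Its log2 intensities were 9.93, 10.04, 9.13 and 9.98 on resistant arrays, 7.43, 7.14, 7.31 and 8.11 on sensitive arrays, and 8.03, 8.86, 9.10, 9.43 and 8.68 on control arrays. Every resistant array lay above every sensitive array, and the lowest resistant value, array 3, fell inside the control range. The means were 9.77 ± 0.43 in resistant, 7.50 ± 0.43 in sensitive and 8.82 ± 0.52 in control cells (SD). The difference of resistant minus sensitive was 2.27 on the log2 scale (SE 0.35), or 4.84-fold. Resistant minus control was 0.95 (SE 0.33) and sensitive minus control was -1.32 (SE 0.33). The order of levels was thus resistant, control, sensitive, with resistant and control arrays overlapping on array 3 and sensitive array 4 overlapping control array 1.

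The other 2 Ero1a probe sets had the same direction on average: resistant minus sensitive was 1.89 on 1449324_at and 2.61 on 1419030_at, and sensitive minus control was -0.70 and -1.06 there. Resistant arrays again lay wholly above sensitive arrays on 1419030_at, but on 1449324_at resistant array 3 (7.93) lay below sensitive array 4 (8.12). On both, resistant minus control was larger than on the main probe set, at 1.20 and 1.55. Sensitive array 4, the only sensitive array with high macrophage markers, also had the widest gap between 3′ and 5′ probe sets (5.95). On the main probe set it had 8.11, below 4 of the 5 control arrays and all 4 resistant arrays. On the other 2 it lay above the control mean, at 8.12 against 7.87 on 1449324_at and 5.58 against 5.38 on 1419030_at. Computed on the main probe set from that sensitive array alone, resistant minus sensitive was 1.64, and without sensitive array 4 it was 2.49. The part of macrophage content in the Ero1a difference was not tested.

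**Figure D1:**
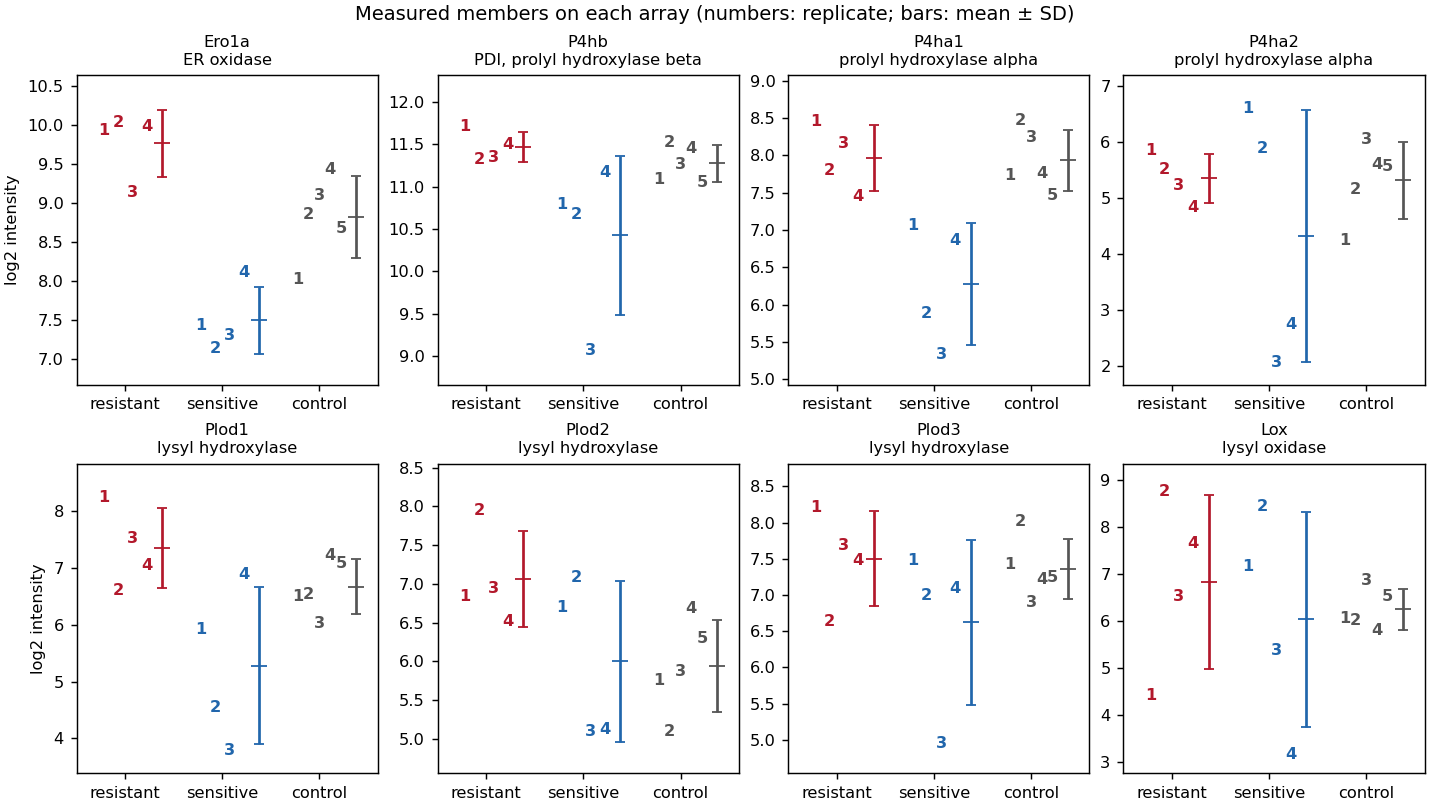
Log2 intensity (y axis) of the 8 measured members on each array, by group (x axis). Digits give the replicate number of the array and bars the mean ± SD of 4 resistant, 4 sensitive or 5 control arrays. Ero1a, P4hb and P4ha1 show no overlap between resistant and sensitive arrays, and sensitive array 3 is the lowest of all 13 arrays for P4hb, P4ha1, P4ha2, Plod1 and Plod3.

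Ero1a and P4ha1 were the members seen to be higher on resistant arrays, so their promoters are shown, from 250 bases before the start of the gene to 50 bases after it (RefSeq, build GRCm38.p6). Capitals mark ACGTG and GCGTG, the core letters of the HIF response element, on either strand (CACGT and CACGC on the printed strand). The Ero1a window is chr14:45318523-45318822, minus strand, and the P4ha1 window is chr10:59323046-59323345, plus strand.
Ero1a: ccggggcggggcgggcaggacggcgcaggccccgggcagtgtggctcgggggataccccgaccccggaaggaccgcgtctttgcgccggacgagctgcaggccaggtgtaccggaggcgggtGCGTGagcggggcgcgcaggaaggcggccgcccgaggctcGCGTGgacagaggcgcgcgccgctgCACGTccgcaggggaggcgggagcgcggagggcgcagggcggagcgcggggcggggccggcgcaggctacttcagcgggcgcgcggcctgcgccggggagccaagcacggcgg
P4ha1: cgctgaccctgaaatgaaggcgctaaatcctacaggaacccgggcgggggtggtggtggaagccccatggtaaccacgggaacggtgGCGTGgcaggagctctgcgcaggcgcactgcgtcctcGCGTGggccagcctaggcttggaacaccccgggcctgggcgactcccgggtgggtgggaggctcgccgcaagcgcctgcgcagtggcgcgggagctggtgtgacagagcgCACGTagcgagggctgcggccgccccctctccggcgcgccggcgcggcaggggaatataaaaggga
The Ero1a window holds GCGTG at -128 and -88 and ACGTG, on the opposite strand, at -63, counted to the leftmost base of the match from the start of the gene. The P4ha1 window holds GCGTG at -163 and -126 and ACGTG, on the opposite strand, at -16. Promoter windows were used for 6 members, and each of those of Ero1a, P4ha1, P4ha2, P4hb, Plod1 and Plod3 held at least 1 of the motifs, with 2 to 4 matches each. Plod2, Lox and Loxl2 were not searched here. Member windows on 1 chromosome were set aside before the search, while the counts over all windows kept that chromosome. The 6 windows therefore do not stand for all members. Of all 32851 mouse promoter windows of that length, 19.6% held ACGTG, 32.4% held GCGTG, 43.8% held either and 8.93% held at least 3 matches. No 2 of the matches in the printed windows overlapped. A match is a description of letters, not of binding.

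P4hb (1437465_a_at), the disulfide isomerase that doubles as the beta subunit of prolyl 4-hydroxylase, varied little among resistant and control arrays. It had 11.71, 11.32, 11.34 and 11.50 on resistant arrays, 10.79, 10.68, 9.06 and 11.17 on sensitive arrays, and 11.08, 11.53, 11.27, 11.46 and 11.05 on control arrays. Resistant arrays overlapped control arrays and lay above all sensitive arrays, and sensitive array 3 lay far below all others. The means were 11.47 ± 0.18, 10.42 ± 0.93 and 11.28 ± 0.22 in resistant, sensitive and control cells (SD). Resistant minus sensitive was 1.04 (SE 0.37), and 0.59 without sensitive array 3. Sensitive minus control was -0.85 (95% interval -1.61 to -0.09), with a limma p of 0.031 and an adjusted p of 0.377, so P4hb did not pass the test. That difference was -0.40 without sensitive array 3 and -1.11 without sensitive array 4. From sensitive array 4 alone, where macrophage markers were high, it was -0.10. The part of macrophage content in the P4hb difference was not tested. Resistant minus control was 0.19 (95% interval -0.57 to 0.95, adjusted p = 1.00). All 3 groups share 1 spread in this fit, so the wide sensitive group also widens the resistant minus control interval. Fitted by limma with only the arrays of both groups compared, sensitive minus control had an adjusted p of 0.579.

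P4ha1 (1452094_at), the main catalytic alpha subunit in most tissues, was the only member whose sensitive arrays all lay below all control arrays. Its values were 8.45, 7.79, 8.16 and 7.44 on resistant arrays, 7.06, 5.88, 5.33 and 6.86 on sensitive arrays, and 7.73, 8.47, 8.24, 7.76 and 7.46 on control arrays. The resistant values spanned the same range as the control values. Means were 7.96 ± 0.44, 6.28 ± 0.82 and 7.93 ± 0.41 in resistant, sensitive and control cells (SD), so that resistant minus sensitive was 1.68 (SE 0.40, 3.21-fold), sensitive minus control -1.65 (SE 0.38) and resistant minus control 0.03 (SE 0.38). Sensitive array 3 was again the lowest, and without it resistant minus sensitive was 1.37 and sensitive minus control -1.34. From sensitive array 4 alone, where macrophage markers were high, these differences were 1.12 and -1.09. The second P4ha1 probe set (1426519_at) lay close to the floor and gave 0.58 and -0.76.

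P4ha2 (1417149_at), the alternative alpha subunit, had 5.85, 5.51, 5.22 and 4.83 on resistant arrays, 6.60, 5.88, 2.05 and 2.73 on sensitive arrays, and 4.23, 5.15, 6.06, 5.60 and 5.56 on control arrays. Sensitive arrays 1 and 2 were above the resistant range, whereas sensitive arrays 3 and 4 were below every other array. Resistant minus sensitive was 1.04 (SE 0.83), and without sensitive array 3 it was 0.28. Sensitive minus control was -1.005 (95% interval -2.69 to 0.68, adjusted p = 0.563) and resistant minus control was 0.03 (95% interval -1.65 to 1.72, adjusted p = 1.00). Below the control range lay all 4 sensitive arrays for P4ha1 and 2 of 4 for P4ha2.

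Plod1 (1416289_at), which hydroxylates lysine in the helical part of collagen, had 8.24, 6.60, 7.52 and 7.04 on resistant arrays, 5.91, 4.55, 3.79 and 6.88 on sensitive arrays, and 6.50, 6.53, 6.02, 7.22 and 7.08 on control arrays. Sensitive arrays 1, 2 and 3, where macrophage markers were low, were below every other array, and sensitive array 4 lay within the control range. Resistant minus sensitive was 2.07 (SE 0.58, 4.19-fold), the second largest difference among the members, and from sensitive array 4 alone it was 0.48. Sensitive minus control was -1.39 (95% interval -2.57 to -0.20) with a limma p of 0.025 and an adjusted p of 0.361. Without sensitive array 4 it was -1.91 with an adjusted p of 0.043, so that array decided whether Plod1 was called, and computed from array 4 alone it was 0.22. The part of macrophage content in the Plod1 difference was not tested. Resistant minus control was 0.68 (95% interval -0.50 to 1.86, adjusted p = 1.00). A second, dim Plod1 probe set (1445893_at) gave 0.11, 0.09 and 0.21 for resistant minus sensitive, sensitive minus control and resistant minus control, so the Plod1 differences rest on 1 probe set.

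Plod2 (1416687_at), the lysyl hydroxylase of the collagen telopeptides and a known HIF target, was the only member tested whose resistant minus control interval left out 0. It had 6.83, 7.95, 6.94 and 6.52 on resistant arrays, 6.70, 7.08, 5.10 and 5.12 on sensitive arrays, and 5.75, 5.10, 5.87, 6.68 and 6.30 on control arrays. Only resistant array 4 fell inside the control range, below control array 4, and sensitive arrays 1 and 2 lay inside the resistant range. Resistant minus control was 1.12 (95% interval 0.09 to 2.15), with a limma p of 0.035 and an adjusted p of 1.00, so the difference did not pass the test. On the second probe set (1416686_at) it was 0.53. Sensitive minus control was 0.06 (95% interval -0.97 to 1.09, adjusted p = 0.966) and -0.56 on the second probe set. Resistant minus sensitive was 1.06 (SE 0.51), and 1.09 on the second probe set.

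Plod3 (1415901_at), which also carries glycosyltransferase activity, had 8.21, 6.63, 7.69 and 7.48 on resistant arrays, 7.48, 6.99, 4.94 and 7.09 on sensitive arrays, and 7.42, 8.02, 6.89, 7.21 and 7.24 on control arrays. The groups overlapped except for sensitive array 3, and resistant minus sensitive was 0.88 (SE 0.51) with that array and 0.32 without it. Sensitive minus control was -0.73 (95% interval -1.76 to 0.30, adjusted p = 0.513) and -0.17 without that array. Resistant minus control was 0.15 (95% interval -0.89 to 1.18, adjusted p = 1.00).

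Lox (1416121_at), the founding member of the cross-linking oxidases, was the most variable member: its range of 5.60 over the 13 arrays exceeded that of 98.4% of the tested genes. It had 4.41, 8.75, 6.53 and 7.65 on resistant arrays, 7.16, 8.45, 5.37 and 3.16 on sensitive arrays, and 6.06, 6.01, 6.86, 5.79 and 6.53 on control arrays. The control arrays lay inside the spread of both B20 groups. Resistant minus sensitive was 0.80 (SE 1.00), and without sensitive array 4 it was -0.16. Sensitive minus control was -0.21 (95% interval -2.25 to 1.83, adjusted p = 0.931) and resistant minus control was 0.59 (95% interval -1.45 to 2.63, adjusted p = 1.00). A second probe set (1448228_at) gave 0.33, 0.08 and 0.41 for resistant minus sensitive, sensitive minus control and resistant minus control, and the third (1437903_at) lay at the floor on 10 of 13 arrays.

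**Figure D2:**
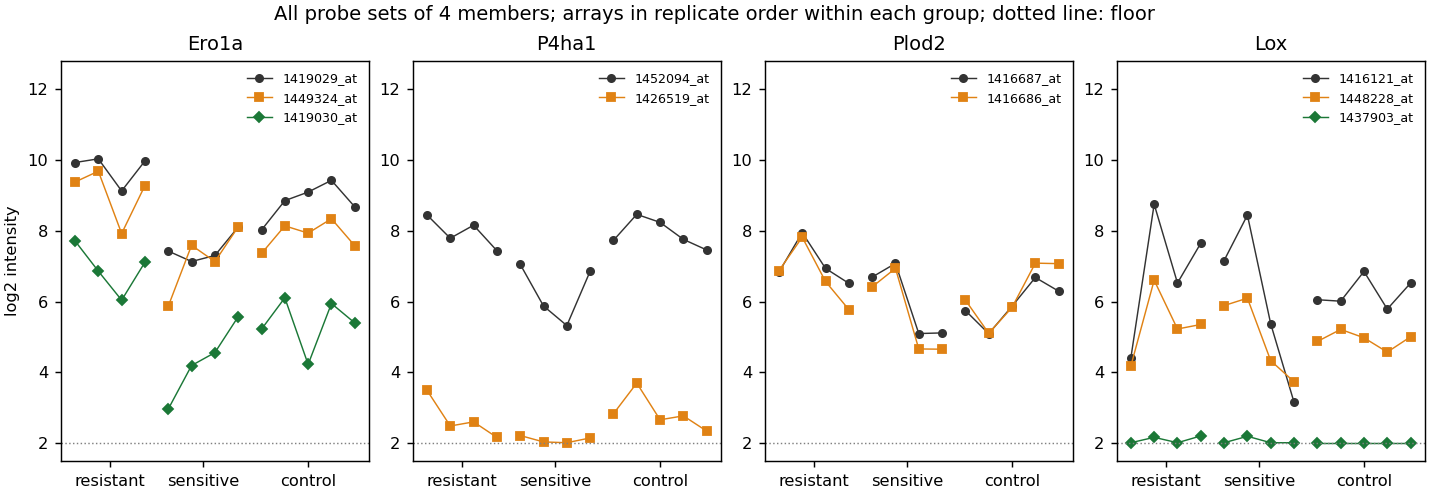
Log2 intensity (y axis) of every probe set of Ero1a, P4ha1, Plod2 and Lox on the 13 arrays, in replicate order within the resistant, sensitive and control groups (x axis). Lines join arrays of 1 group, and the dotted line is the floor of 2.01. The 3 Ero1a probe sets are each higher in resistant than in sensitive cells on average, while the second P4ha1 and the third Lox probe sets stay close to the floor.

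As a group, the members lay higher in resistant than in sensitive cells, and their selection used this contrast. All 8 measured members had a positive difference, with a median of 1.05, while 42.1% of all tested genes had a positive difference, with a median of -0.07. Resistant arrays lay wholly above sensitive arrays for 3 of 8 members (Ero1a, P4hb and P4ha1) and for 150 of 15384 genes, or 0.975%, from which nothing is read since the rule used this contrast. Without sensitive array 3, the median of the members was 0.68. The same sensitive arrays enter the next comparison and the same resistant arrays the one after it, so the 3 comparisons are not independent.

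In sensitive cells against control cells, 7 of 8 members had a negative difference and 1, Plod2, a positive one that was negative without quantile normalization (-0.35) and with arrays shifted to one median (-0.46), with a median of -0.93, while all tested genes had a median of 0.09 and 58.4% were positive. Leaving out sensitive array 3 brought the median of the members to -0.32, with 2 of 8 positive. Limma called 0 of the 6 members tested and 0 of 15384 genes (0%) at an adjusted p under 0.05. At an unadjusted p under 0.05 the difference was negative for 2 of the 6 (P4hb and Plod1), against 1011 genes (6.57%), and 1829 genes passed that threshold in either direction. The methods' t-test gave 1371 genes at an unadjusted p under 0.05 and 0 after Benjamini-Hochberg adjustment. Sensitive arrays lay wholly below control arrays for 1 of 8 members, P4ha1, against 245 genes (1.59%). Without sensitive array 4 the count of genes called was 696, which included Plod1 and none of the other 5 members tested.

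In resistant cells against control cells, all 8 members had a positive difference, with 7 positive without quantile normalization (P4ha1 negative) and 6 with arrays shifted to one median (P4ha1 and P4ha2 negative). Their median was 0.39, while all tested genes had a median of 0.03 and 54.3% were positive. Without resistant array 1, 5 of 8 were positive. Limma called 0 of 6 members and 0 of 15384 genes (0%). At an unadjusted p under 0.05, 1 of 6 members (Plod2) had a positive difference, against 153 genes (0.995%), and 388 genes passed in either direction. The methods' t-test gave 1043 genes unadjusted and 0 after adjustment, and limma with array weights called 34. Resistant arrays lay wholly above control arrays for 0 of 8 members, against 202 genes (1.31%). Over all genes, resistant against sensitive likewise gave 0 of 15384 calls (0%) with limma, 1087 genes at an unadjusted p under 0.05, 529 with the methods' t-test and 0 after its adjustment, and 424 calls without sensitive array 4.

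**Figure D3:**
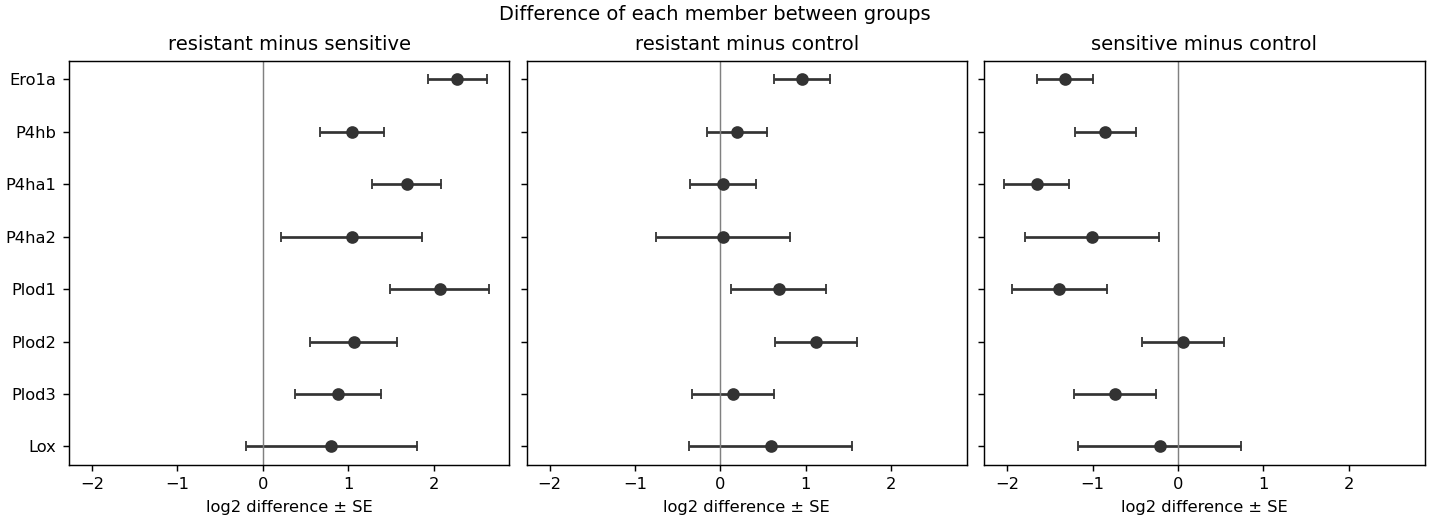
Difference in mean log2 intensity ± SE (x axis) for each measured member (y axis) in resistant minus sensitive, resistant minus control and sensitive minus control. All 8 points lie right of 0 in resistant minus sensitive (median 1.05) and in resistant minus control (median 0.39, with P4ha1 and P4ha2 turning negative when arrays are shifted to one median), and all but Plod2, which also turns negative then, lie left of 0 in sensitive minus control.

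Within groups, the members did not all follow one array pattern. After each group's mean was removed, P4hb, P4ha1, Plod1 and Plod3 varied together over the 13 arrays, with pairwise Pearson r between 0.65 and 0.84. The highest, P4hb with Plod3, was 0.84 (Spearman rho 0.76, and 0.70 without sensitive arrays 3 and 4), whereas P4hb with Plod1 dropped to 0.29 without those arrays and so rests on them. Without the same arrays, P4hb with P4ha1 fell from 0.74 to 0.54 and Plod1 with Plod3 from 0.71 to 0.56. Without sensitive arrays 1 and 3, P4ha1 with Plod1 fell from 0.65 to 0.47 and P4ha1 with Plod3 from 0.73 to 0.47. Among P4ha2, Plod2 and Lox, r was 0.75 for P4ha2 with Plod2 (rho 0.76, and 0.69 without sensitive arrays 1 and 3), 0.67 for Plod2 with Lox (rho 0.68, and 0.44 without sensitive array 2 and resistant array 2) and 0.54 for P4ha2 with Lox (rho 0.50, and 0.56 without sensitive arrays 1 and 3). P4ha2 also went with Plod3, at 0.51 (rho 0.29, and -0.13 without sensitive arrays 1 and 3), and with P4hb, at 0.47 (rho 0.37, and 0.64 without sensitive arrays 3 and 4), so these genes do not fall into separate sets. Plod1 and Lox ran in opposite directions, at -0.61 (rho -0.50, and -0.71 without sensitive arrays 3 and 4). For Ero1a, r with the other members lay between -0.27 (Lox, rho -0.19) and 0.39 (P4hb, rho 0.39), and without control array 1 and resistant array 3 it was -0.49 with Lox, 0.43 with P4hb and 0.52 with Plod1. These are descriptions over 28 pairs of genes on the same 13 arrays, which share their cell makeup and RNA quality.

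**Figure D4:**
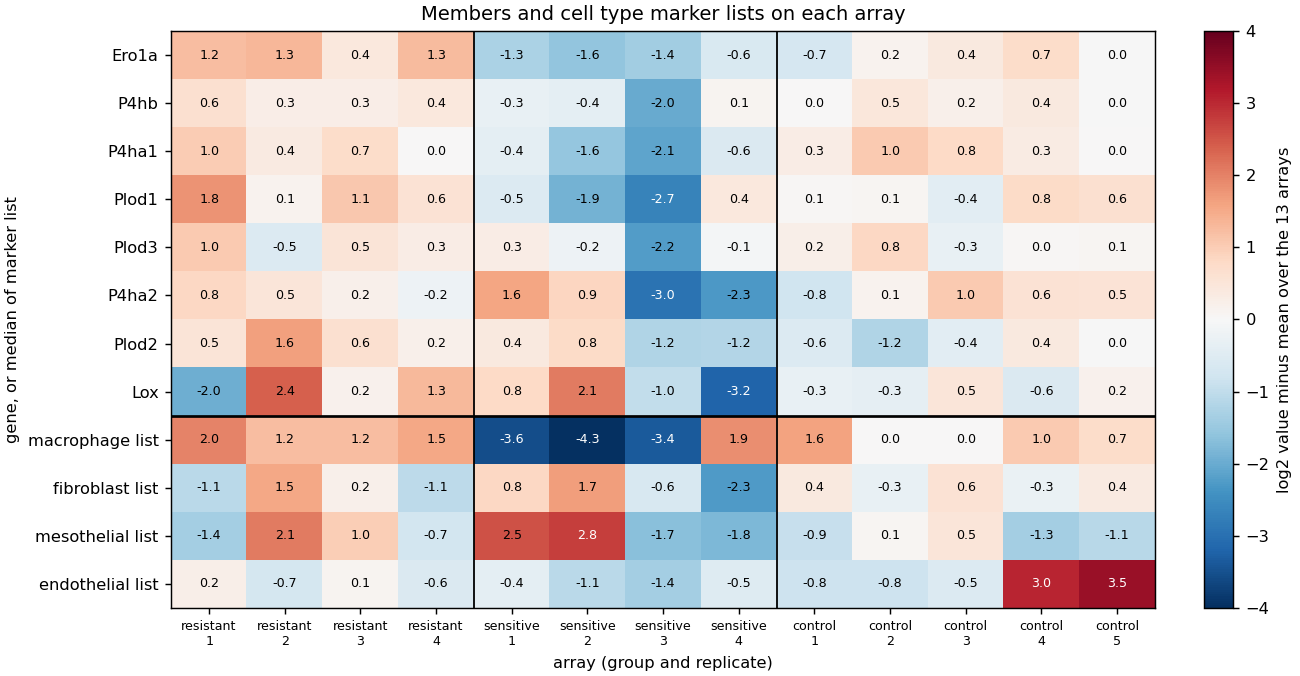
Log2 value minus its mean over the 13 arrays (color and printed number) for the 8 members and for the medians of 4 marker lists (y axis), on each resistant, sensitive and control array (x axis). Lox, Plod2 and the fibroblast and mesothelial lists are all high on resistant array 2 and sensitive array 2, and the macrophage list is low on sensitive arrays 1, 2 and 3.

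Fibroblast marker medians were 4.49, 7.10, 5.75 and 4.51 on resistant arrays 1 to 4, 6.39, 7.24, 4.91 and 3.30 on sensitive arrays 1 to 4, and 5.27 to 6.14 on control arrays. The highest and lowest sensitive values fell on the arrays that were highest and lowest for Lox. Resistant array 4, with a fibroblast median close to the lowest of its group, had 7.65 for Lox, the second highest there. Summed fibroblast marker intensities on resistant arrays 1 to 4 were 287, 4034, 1027 and 919. Dcn, a gene of that list, ranked 4 among the genes most like Lox with group means removed (r = 0.97, rho 0.93, and 0.93 without sensitive arrays 2 and 4). The part of fibroblast content in the Lox and Plod2 values was not tested. The genes most like each member over the 13 arrays, again with group means removed, were Col5a1 for Lox (r = 0.99, rho 0.97, and 0.98 without sensitive arrays 2 and 4), Foxf1 for Plod2 (0.99, rho 0.98, and 0.98 without sensitive array 2 and resistant array 2) and Gpr179 for P4ha2 (0.99, rho 0.98, and 0.99 without sensitive arrays 1 and 3). Ctsd was most like Plod1 (0.95, rho 0.93, and 0.88 without sensitive arrays 3 and 4), Cebpb most like Plod3 (0.95, rho 0.90, and 0.85 without sensitive array 3 and resistant array 2), Pmp22 most like P4hb (0.98, rho 0.95, and 0.89 without sensitive arrays 3 and 4) and Tmem38b most like P4ha1 (0.95, rho 0.96, and 0.95 without sensitive arrays 1 and 3). Ero1a had the weakest best match, Hsf2 (0.79, rho 0.82, and 0.76 without control array 1 and resistant array 3). Each is the highest of 15384 genes and was selected for that.

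Other genes of the pathways were taken as whole lists, and limma called 0 of their genes in each comparison. Beside the counts below, 42.1% of all tested genes were positive in resistant minus sensitive. The 9 other genes of oxidative folding, which share the oxidizing step with Ero1a or act beside it, had medians of 0.03 in resistant minus sensitive, 0.21 in resistant minus control and 0.12 in sensitive minus control. Qsox1, a sulfhydryl oxidase, averaged 3.97 ± 0.45 in resistant and 4.82 ± 1.07 in sensitive cells (SD), a difference of -0.85 and thus opposite in sign to that of Ero1a. Prdx4, the endoplasmic reticulum peroxiredoxin, differed by -0.39 and Vkorc1, the vitamin K epoxide reductase, by 0.24.

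The 11 other protein disulfide isomerase family genes were positive in 10 of 11 cases in resistant minus sensitive (median 0.47). In sensitive minus control 8 of 11 were negative (median -0.49), 4 of them at an unadjusted p under 0.05 against 1 positive, while of all 15384 tested genes 6405 were negative, 1011 (6.57%) were negative at that threshold and 818 positive. Dnajc10, a disulfide reductase, averaged 7.03 ± 0.49 in resistant, 6.11 ± 0.66 in sensitive and 7.40 ± 0.37 in control cells (SD), a sensitive minus control difference of -1.29 (adjusted p = 0.244). Pdia6 differed by -0.76 (adjusted p = 0.341), and Txndc12, a thioredoxin-like isomerase, ran the other way at 0.91 (adjusted p = 0.373).

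Among 10 tested genes of the other collagen modifiers, which include the prolyl 3-hydroxylases and collagen chaperones, 8 were positive in resistant minus sensitive, with a median of 0.28, and the sensitive minus control median was -0.11. Crtap, a partner of the prolyl 3-hydroxylase P3h1, averaged 7.65 ± 0.30 in resistant and 6.72 ± 1.69 in sensitive cells (SD). P3h1 itself differed by 0.45 and Colgalt1, which adds galactose to hydroxylysine, by 0.57. The 3 other lysyl oxidase genes measured, Loxl1, Loxl3 and Loxl4, had resistant minus sensitive differences of 0.30, -0.65 and -0.33, so they shared no direction.

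The substrates showed how far collagen mRNA itself varied. Among 11 collagens, elastic fiber genes and processing enzymes, 10 were positive in resistant minus sensitive, with a median of 0.68. Col3a1, a fibrillar collagen, had 9.50, 12.51, 11.71 and 10.78 on resistant arrays, 11.65, 11.91, 10.10 and 5.94 on sensitive arrays and 10.71 to 11.53 on control arrays. As for Lox, sensitive array 4 was the lowest and resistant array 2 the highest. Col4a1 and Col4a2, basement membrane collagens, differed by 0.68 and 0.72 between resistant and sensitive cells.

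Of 12 other known HIF targets, all 12 were positive in resistant minus sensitive (median 1.03), 8 in resistant minus control (median 0.52) and 3 in sensitive minus control (median -0.58). Of all tested genes, 42.1%, 54.3% and 58.4% were positive in these comparisons. All 11 macrophage markers were also positive in resistant minus sensitive (median 2.97). The part of cell content in the HIF target differences was not tested. Pgk1, a glycolytic kinase, averaged 10.74 ± 0.67 in resistant, 9.41 ± 0.74 in sensitive and 11.10 ± 0.18 in control cells (SD). Its sensitive minus control difference was -1.69 (adjusted p = 0.189), and those of the glycolytic genes Aldoa and Ldha were -1.39 and -1.09 (adjusted p = 0.262 and 0.290). For these 3 genes resistant minus control was -0.36, -0.26 and -0.14, and they are 3 of the 4 negative genes of the list. Over the 12 genes it ran from -0.36 to 1.66, with 3 positive and 0 negative at an unadjusted p under 0.05, against 153 (0.995%) and 235 of all tested genes. The 10 genes of the unfolded protein response and its chaperones had medians of 0.12, 0.03 and -0.13 in resistant minus sensitive, resistant minus control and sensitive minus control. Xbp1, a transcription factor of that response, averaged 9.11 ± 0.31 in resistant, 9.43 ± 0.40 in sensitive and 8.57 ± 0.23 in control cells (SD), with a sensitive minus control difference of 0.86 (adjusted p = 0.280).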

How the data were processed

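RNA of the sorted cells was measured on single-color Affymetrix mouse arrays, 4 resistant, 4 sensitive and 5 control. Per the labels, biotinylated cRNA was prepared and the values were processed with MAS5, while the methods of the study describe bead chips and other software. The values deposited by the authors, 45101 probe sets with no missing value, were taken as log2 intensities from their range. For the logarithm's base and for the normalization, a statement is not given in the sources used here; folds assume base 2. Linear trimmed means of the arrays ran from 19.4 to 33.5, and the arrays were therefore quantile normalized. Values under the 30th percentile (2.01) were set to it, which understates changes of dim genes.

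Probe sets were named from a platform table (34958 with 1 symbol, 932 with several and not used, 9211 not listed there). Each of 18193 genes was represented by its brightest probe set, and the 15384 above the floor on at least 4 of 13 arrays were tested, 2809 being left out. The comparisons used limma 3.58.1 (R 4.3.3; lmFit, eBayes with trend, 3 groups, 10 residual degrees of freedom), two-sided, with Benjamini-Hochberg adjustment over all tested genes and a threshold of 0.05. Each gene had 1 spread shared by the 3 groups, so intervals for resistant minus control also carry the spread of the sensitive arrays. The fit was run on simulated data with 1 spread per gene for all groups and with genes independent of each other. Such data cannot show how the fit fares with the wider sensitive group here. Named genes are the members, at most 3 genes with the smallest p of each pathway list, and the genes most like each member. The members, the lists and the alternatives were chosen with earlier results of these data known. Alternatives covered scaling, floor, filter, probe set rule, variance model, array weights, the methods' t-test, run without the random variance model of the study, the replicate block and leaving out arrays. Same-numbered arrays of different groups were checked for pairing, and their deviations from the group means went together in 4 of 12 pairs (r from 0.13 to 0.53). Over all 12 pairs r ran from -0.43 to 0.53. The number of arrays limits the precision.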

Additional observations from a re-analysis of the deposited data

Results flagged for a closer look

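In 1 of the 24 groups of arrays checked (8 members in 3 groups), a single array stood apart from the rest. Ero1a was 9.13 on resistant array 3, while the other resistant arrays lay between 9.93 and 10.04. Chance alone gives about 1 such group in 20. With that array left out, the Ero1a difference of resistant minus sensitive was 2.49.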

How the results depend on the processing

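Of 696 values (24 member differences under 29 alternatives), 32 had the opposite sign, 20 of them in tested differences and 12 in differences described without a test (P4ha1 in resistant minus control and Lox in resistant minus sensitive). A further 11 untested differences moved by more than the replicate SD, and 1 tested difference became called. The Ero1a difference of resistant minus sensitive ran from 1.64 to 2.75 and that of P4ha1 from 1.12 to 2.07 over all alternatives. The number of members positive in sensitive minus control was 0 without quantile normalization, with arrays shifted to one median, with the mean of all probe sets, with array weights, and without sensitive arrays 1 and 2 and resistant arrays 2 and 3. Leaving out single arrays, it was 0 to 2, against 5 to 8 in resistant minus control and 7 to 8 in resistant minus sensitive. Shifting arrays to one median moved the median of all genes to 0.04 in resistant minus sensitive, against -0.07, and to -0.05 in sensitive minus control, against 0.09.

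Genes called in sensitive minus control were 2 without sensitive arrays 1, 2 and 3 (the remaining array is then assumed to vary like the other groups), 5 without sensitive arrays 1 and 2 and resistant arrays 2 and 3, and 0 to 696 without single arrays. In resistant minus sensitive they were 2 in the fit of both groups alone, 1 without sensitive arrays 1, 2 and 3, 1 without sensitive arrays 1 and 2 and resistant arrays 2 and 3, and 0 to 424 without single arrays. In resistant minus control they were 34 with array weights and 0 to 0 without single arrays. With the replicate number as a block (replicate block), 0 genes were called in each comparison, and 1260, 249 and 832 passed at an unadjusted p under 0.05 in sensitive minus control, resistant minus control and resistant minus sensitive, against 1829, 388 and 1087; the labels give no pairing.

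In sensitive minus control, Plod2 was -0.35 without quantile normalization, -0.46 with arrays shifted to one median, -0.25 with the mean of its probe sets, -0.23 with array weights, -0.86 without sensitive arrays 1, 2 and 3, -0.87 without sensitive arrays 1 and 2 and resistant arrays 2 and 3, and -0.31 to 0.36 without single arrays. Plod1 was 0.22 without sensitive arrays 1, 2 and 3, and Lox was -1.04 to 0.75 without single arrays. In resistant minus control, P4ha2 was -0.027 with arrays shifted to one median and -0.24 to 0.22 without single arrays, Plod3 was -0.091 to 0.44 without single arrays, and Lox was -0.25 without sensitive arrays 1 and 2 and resistant arrays 2 and 3 and -0.054 to 1.40 without single arrays. The alternative without sensitive array 3 and control arrays 4 and 5 was added after the values had been seen and changed no call. The cause of these shifts was not tested.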
